A study of Drosophila melanogaster with 3 samples.

Results

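The Hox genes of Drosophila melanogaster were examined as targets of CG17385, a protein mapped by chromatin immunoprecipitation sequencing (ChIP-seq) in whole embryos. The members were chosen by gene symbol: lab, pb, Dfd, Scr and Antp of the Antennapedia complex, and Ubx, abd-A and Abd-B of the bithorax complex, which are 8 of 13945 annotated protein-coding genes. Each complex was read as 1 window that ran from 20 kb outside its first Hox gene to 20 kb outside its last. The Antennapedia window spanned 377.8 kb (chr3R:6641427-7019228) and the bithorax window 355.6 kb (chr3R:16636623-16992236) of dm6. Together they held 33 of the 7588 peaks that the authors kept after the irreproducible discovery rate (IDR) step, a check that a peak recurs between replicates, and 182 of the 30000 peaks of the pooled list.

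The embryos came from a transgenic line that stably carries CG17385 fused to GFP at its C-terminus, were 0 to 24 h old and of both sexes, and were used as 3 biological replicates of 1 group with sonicated chromatin of 200 to 800 bp. The antibody is labelled CG17385. Every replicate list was made against the same further file, and no other genotype or condition was analysed here. The labels conflict, since their description calls the samples an input control and their assay and antibody fields give a ChIP of CG17385. The peaks were taken as ChIP peaks. Whole embryos of all stages were pooled, so a peak cannot be placed in a tissue or segment, and p-values over the replicates measure only the spread between these 3 samples. Read numbers behind the peaks are unknown.

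Hox genes encode homeodomain transcription factors that give segments their identity along the head-to-tail axis, and in flies they are split between the Antennapedia complex, which acts in the head and anterior thorax, and the bithorax complex, which acts in the posterior thorax and abdomen. Their long introns and intergenic stretches carry enhancers, Polycomb response elements, which keep the genes silent where they are off, and, in the bithorax complex, boundary elements that separate the regulatory domain of one segment from the next. Several of these stretches are also transcribed into noncoding RNAs, among them lncRNA:bxd and lncRNA:iab8. Positions of enhancers, boundaries and response elements were not in the annotation used here, so no summit was assigned to one.

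The strongest summit of both complexes lay in an exon of lncRNA:iab8, the long noncoding RNA transcribed between abd-A and Abd-B, and held the 8-base word most enriched at CG17385 summits elsewhere, AGAAGAAG. The word, on either strand, occurred within 100 bp of the summit at 4 of 33 Hox IDR summits and at 12.3% of the other 7555, against 1 of 66 windows centred 1 kb to either side of the Hox summits and 2.02% of such windows elsewhere. The 4 sequences are shown because they are the Hox summits with this word, and capitals mark it (as CTTCTTCT on the strand shown, runs of overlapping copies joined). Sequences are from the RefSeq copy of the dm6 assembly and run 5′ to 3′.
lncRNA:iab8 exon, chr3R:16899862-16900062, plus strand: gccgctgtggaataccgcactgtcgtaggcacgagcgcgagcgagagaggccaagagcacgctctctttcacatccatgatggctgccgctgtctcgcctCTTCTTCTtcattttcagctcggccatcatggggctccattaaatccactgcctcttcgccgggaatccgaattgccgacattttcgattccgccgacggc
lncRNA:bxd intron, chr3R:16764296-16764496, plus strand: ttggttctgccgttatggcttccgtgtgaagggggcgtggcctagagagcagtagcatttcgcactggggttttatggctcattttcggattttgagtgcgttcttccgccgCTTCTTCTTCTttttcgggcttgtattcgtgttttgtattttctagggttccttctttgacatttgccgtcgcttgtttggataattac
Ubx intron, chr3R:16703525-16703725, plus strand: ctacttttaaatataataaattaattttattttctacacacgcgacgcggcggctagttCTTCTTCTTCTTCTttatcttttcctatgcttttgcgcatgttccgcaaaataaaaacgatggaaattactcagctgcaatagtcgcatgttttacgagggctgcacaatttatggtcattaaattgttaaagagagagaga
Scr intron, chr3R:6845804-6846004, plus strand: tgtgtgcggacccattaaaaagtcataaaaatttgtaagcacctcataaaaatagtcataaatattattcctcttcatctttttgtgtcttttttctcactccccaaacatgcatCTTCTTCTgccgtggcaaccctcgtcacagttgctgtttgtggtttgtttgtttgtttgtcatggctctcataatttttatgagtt
In the first sequence the word started at the summit itself. In the other sequences it started 12 bp to the right of the summit in lncRNA:bxd, 41 bp to the left in Ubx and 15 bp to the right in Scr.

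A further set of 4 IDR summits, all between abd-A and Abd-B, held AGNNGGCGC, the core of the site bound by CTCF, an insulator protein. Capitals mark it, here on the minus strand.
4803 bp upstream of abd-A, chr3R:16834752-16834952, plus strand: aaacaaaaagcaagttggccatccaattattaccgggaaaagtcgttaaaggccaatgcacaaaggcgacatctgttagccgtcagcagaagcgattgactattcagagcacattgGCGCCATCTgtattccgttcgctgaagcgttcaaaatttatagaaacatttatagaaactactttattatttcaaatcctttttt
845 bp upstream of mir-iab-8, chr3R:16857087-16857287, plus strand: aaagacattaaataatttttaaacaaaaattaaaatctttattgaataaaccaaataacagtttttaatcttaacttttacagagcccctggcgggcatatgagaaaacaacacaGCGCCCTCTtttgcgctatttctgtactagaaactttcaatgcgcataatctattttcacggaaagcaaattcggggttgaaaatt
MSAmiP intron, chr3R:16869325-16869525, plus strand: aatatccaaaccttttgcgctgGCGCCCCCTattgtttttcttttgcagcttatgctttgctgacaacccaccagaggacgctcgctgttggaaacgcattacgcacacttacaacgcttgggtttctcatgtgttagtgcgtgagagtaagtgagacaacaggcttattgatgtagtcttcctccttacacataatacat
lncRNA:iab8 intron, chr3R:16919155-16919355, plus strand: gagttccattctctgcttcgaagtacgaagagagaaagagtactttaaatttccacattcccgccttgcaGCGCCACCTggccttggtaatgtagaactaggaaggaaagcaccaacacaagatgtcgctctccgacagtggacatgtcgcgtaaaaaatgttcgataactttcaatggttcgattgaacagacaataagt
These 4 were 12.1% of the 33 Hox IDR summits and 22.2% of the 18 in the bithorax window. All were among the 7 IDR summits between abd-A and Abd-B. The same letters occurred at 0 of 15 IDR summits of the Antennapedia complex, at 2.32% of all IDR summits, at 2.13% of all pooled summits and at 3.03% of 66 windows beside the Hox summits. They also occurred at 6 of 149 (4.03%) pooled Hox summits outside the IDR list. Antp, Ubx, abd-A, Abd-B and the interval from Ubx to abd-A each had 1 copy within 100 bp of a pooled summit. The interval between abd-A and Abd-B held 13 copies in 97.16 kb, and 4 of them lay within 100 bp of an IDR summit. The other 17 segments of the windows had none so placed, but each held fewer IDR summits than this interval, and some held none. The pb gene held 8 copies but only 1 IDR summit. The copy counts therefore cannot set the segments apart. A match is a description of the letters and not of a bound factor.

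The only IDR summit at a Hox start site and the strongest ones inside Antp and Abd-B are shown for comparison. Capitals mark TAATTA, a core shared by many homeodomain sites, on either strand.
Upstream of Dfd, chr3R:6791361-6791561, plus strand: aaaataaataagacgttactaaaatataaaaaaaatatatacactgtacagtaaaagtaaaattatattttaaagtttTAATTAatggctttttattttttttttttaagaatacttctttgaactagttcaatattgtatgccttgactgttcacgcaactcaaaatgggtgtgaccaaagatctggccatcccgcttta
Antp intron, chr3R:6912426-6912626, plus strand: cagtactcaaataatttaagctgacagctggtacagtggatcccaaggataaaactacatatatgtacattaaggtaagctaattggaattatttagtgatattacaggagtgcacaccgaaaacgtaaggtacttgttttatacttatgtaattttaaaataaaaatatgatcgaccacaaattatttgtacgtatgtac
Abd-B intron, chr3R:16958177-16958377, plus strand: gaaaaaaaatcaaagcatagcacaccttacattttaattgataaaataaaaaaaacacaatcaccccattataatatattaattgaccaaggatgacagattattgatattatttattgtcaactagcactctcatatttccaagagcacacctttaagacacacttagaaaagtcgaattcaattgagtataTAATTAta
The Antp sequence held no copy. Across the Hox IDR summits TAATTA was present at 8 of 33 (24.2%), against 15.3% of all IDR summits and 9.09% of the windows beside the Hox summits.

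At the start sites of the Hox genes the listed CG17385 summits were mostly weak, and several of them may be background. Only Dfd had an IDR summit within 500 bp of a start site, so 1 of 8 Hox genes did, against 26.9% of all protein-coding genes. In the pooled list, which runs on into background, all 8 had a summit there, against 47.6% of all protein-coding genes. Signal is the authors' own deposited score and its scale is not stated, so strength is compared by rank within a list, where rank 1 is the strongest of 30000 peaks.

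Dfd (FBgn0000439), which specifies head segments, had its summit 375 bp upstream of its single start site, with ranks of 4686, 3409 and 4629 in replicates 1, 2 and 3 and a pooled signal of 280.9. All 3 ranks lay inside the top N, meaning the 7588 strongest peaks of a list, as many as there are IDR peaks. Ubx (FBgn0003944), which specifies the posterior thorax and first abdominal segment, had a summit 26 bp inside its single start site with a pooled signal of 157.5. That was just below the lowest IDR signal of the whole list, 159.9, and the strongest Ubx start-site peak ranked 6146, 8453 and 12557 in the 3 replicates, so it reached the top N in replicate 1 only. Abd-B (FBgn0000015), which specifies the posterior abdomen, had a summit of 107.3 at 347 bp upstream of 1 of its 6 start sites, matched at ranks 10234, 12869 and 13610. Other summits within 500 bp of the same start, at 60 bp in replicate 1 and 206 bp in replicate 3, ranked higher, at 6228 and 11279.

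The remaining Hox start-site summits were weaker still. The −log10 of the deposited q-value of the best pooled summit was 0.484 to 0.836 in these 5 genes. It was 3.43 for Dfd, 3.15 for Ubx and 1.85 for Abd-B. At the low values a listed summit cannot be told from background. Antp (FBgn0260642), which specifies the thorax, had a pooled summit of 67.33 at best among its 3 start sites, matched at rank 10699 in replicate 1 and by no summit within 100 bp in replicates 2 and 3. The best rank of any peak within 500 bp of an Antp start was 8953 in replicate 1 and 18820, at another start, in replicate 3, and replicate 2 listed none. abd-A (FBgn0000014), which specifies anterior abdominal segments, had 60.8, pb (FBgn0051481), which specifies mouthparts, 57.75, and Scr (FBgn0003339), which specifies the labial segment and first thoracic segment, 54.66. lab (FBgn0002522), the most anterior in its action, had 51.41, and only replicate 1 listed a peak within 500 bp of a lab start site, at rank 13074. Of the 19 annotated Hox start sites, 1 had an IDR summit and 9 a pooled one, and replicates 1, 2 and 3 listed a summit at 10, 8 and 9 of them. The share over all annotated start sites is not given here, so these counts cannot be called low or high. The plot of start-site ranks shows Dfd as the 1 gene with every replicate inside the top N.

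**Figure D1:**
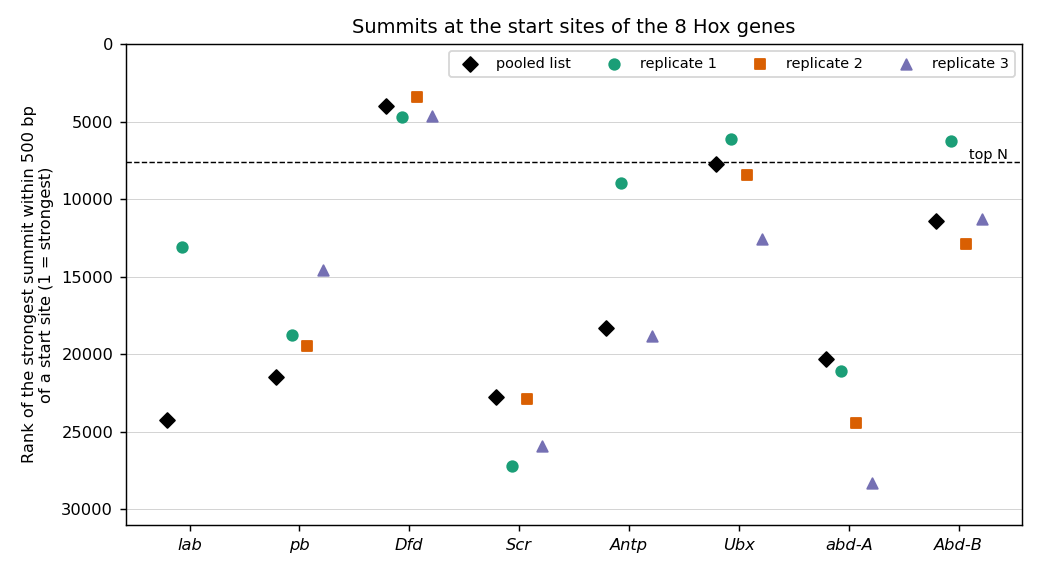
Rank of the strongest summit within 500 bp of any annotated start site of each Hox gene, in the pooled list and in replicates 1, 2 and 3 (vertical axis, rank 1 at the top; a missing symbol means no listed peak). The dashed line is rank 7588; Dfd lies above it in all 3 replicates, and Ubx and Abd-B in replicate 1 only.

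Most IDR summits of the complexes lay far from any protein-coding start site. Of 33 Hox summits 6 (18.2%) had a protein-coding start site within 500 bp, against 45.9% of all IDR summits, and 19 (57.6%) were beyond 5 kb, against 18.8%. Hox summits lay a median of 10570 bp from the nearest protein-coding start, against 677 bp over the whole IDR list. With noncoding start sites included, 11 of 33 (33.3%) were beyond 5 kb of any annotated start, against 14.2% of all IDR summits, and the median distances were 2601 bp and 549 bp. By annotation 22 of the 33 lay in introns, 9 between genes and 2 in exons.

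The replicate lists gave the same order. Among the top-N summits inside the Hox windows 28.1%, 15.8% and 15.8% were at a start site by this measure in replicates 1, 2 and 3 (19.9% ± 7.12, SD, n = 3), against 46.9% ± 3.66 outside the windows. The difference was -27.0 ± 5.58 percentage points and negative in 3 of 3 replicates. Beyond 5 kb lay 54.6% ± 1.24 of the Hox summits and 18.3% ± 2.07 of the others, a difference of 36.3 ± 1.65 points that was positive in 3 of 3 replicates. The exact sign-flip permutation test, 2-sided, gave p = 0.25 for each, the smallest that 3 replicates allow, and an adjusted p of 0.25 over the 6 tests made, so neither could pass 0.05. Start sites are sparser in the windows: 7.52% of the bases of the Hox windows lay within 500 bp of one, against 11.5% outside. The share of bases beyond 5 kb of a start site is not given here. The part of this sparseness in either difference was not tested. By complex the start-site share was 22.3% ± 4.03 in the Antennapedia and 18.6% ± 13.0 in the bithorax window, and replicate 1 had 33.3% in the bithorax window, against 8.70% in replicate 2 and 13.6% in replicate 3.

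The number of top-N summits was low in the Antennapedia complex and near the level of the chromosome arm in the bithorax complex. The Antennapedia window held 14, 15 and 16 top-N summits in replicates 1, 2 and 3, or 3.97 ± 0.265 per 100 kb (SD, n = 3), against 5.56 ± 0.0638 in the rest of 3R. The difference was -1.59 ± 0.241 per 100 kb and negative in 3 of 3 replicates (exact permutation p = 0.25, adjusted p = 0.375 over 3 tests). The bithorax window held 18, 23 and 22, or 5.91 ± 0.744 per 100 kb. Its difference from the rest of 3R was 0.344 ± 0.760, within the spread between replicates (exact permutation p = 0.5, adjusted p = 0.5), and the replicate values were -0.502, 0.971 and 0.562. For both windows together it was -0.653 ± 0.478 (exact permutation p = 0.25, adjusted p = 0.375).

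The first pooled summit of 3R stood at position 3734169, and the arm before it entered the comparison as empty sequence. Counted from that summit on, the rest of 3R had 6.31 ± 0.0725 top-N summits per 100 kb, and the differences became -2.34 for the Antennapedia and -0.405 for the bithorax window. The sign for the bithorax window therefore turned with this choice. With all listed peaks in place of the top N, the Antennapedia difference also changed sign, to 0.412. Of the pooled summits of the Hox windows 18.1% were IDR summits, against 25.3% of the whole list.

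Other homeobox gene clusters gave a scale for these values. The NK complex (tin, bap, lbe, lbl, C15 and slou, mesoderm and muscle regulators among them) had 4.28 ± 0.700 top-N summits per 100 kb, the Iroquois complex (ara, caup and mirr) 3.34 ± 0.901, and the locus of the segment-polarity gene en and its neighbour inv 3.20 in each replicate. The Antennapedia value lay within 1 SD of the NK and Iroquois values, and the lowest bithorax replicate, at 5.06, was close to the highest replicate of the other clusters, at 5.04 in the NK complex. The share beyond 5 kb was 10.9% ± 1.71 in the NK complex, 76.6% ± 6.11 in the Iroquois complex, and 55.6% ± 19.2 at the en and inv locus, near the 54.6% of the Hox windows. No test was made across the clusters, which hold 4 to 8 IDR summits each.

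**Figure D2:**
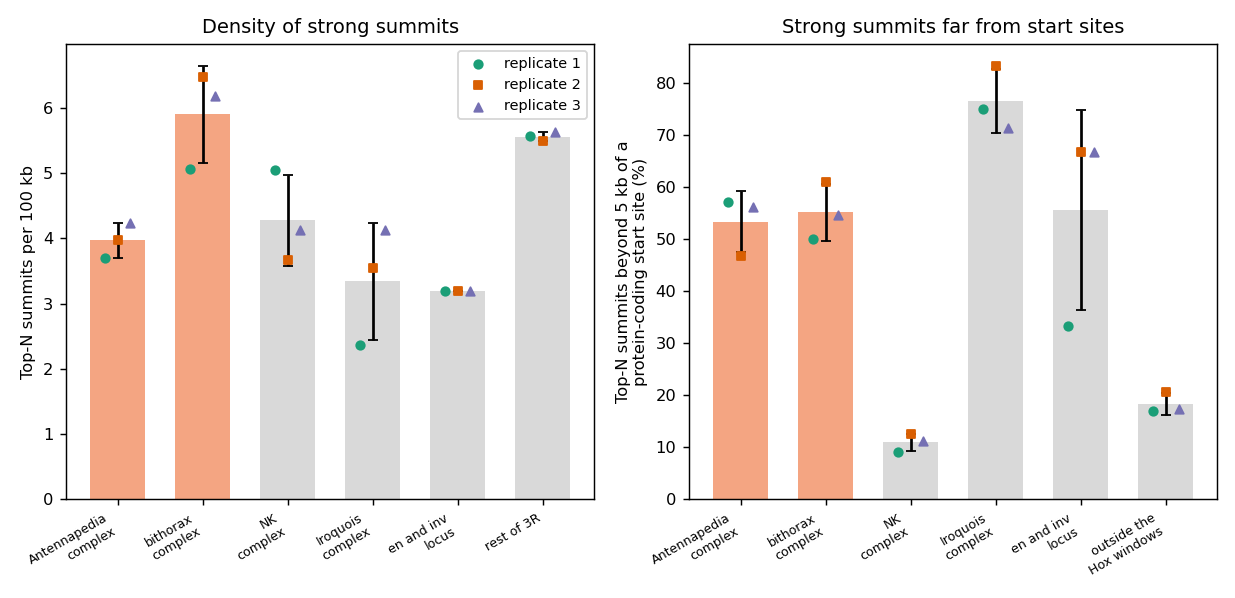
Left, top-N summits per 100 kb; right, percent of top-N summits beyond 5 kb of a protein-coding start site, with the 2 Hox windows first, then 3 other homeobox loci and the rest of 3R or of the genome. Bars are means and error bars SD over 3 replicates, symbols are replicates; the Hox windows stand at 3.97 and 5.91 per 100 kb, and 54.6% of their summits together lie beyond 5 kb, against 18.3% outside.

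Within the Antennapedia complex most IDR summits lay in Antp and between pb and Dfd. The densities were 5.83 and 10.05 IDR summits per 100 kb, against 3.97 over the window. The Antp value was near the 5.56 top-N summits per 100 kb of the rest of 3R. Antp, 103.0 kb long, held 6 IDR summits, all in introns and all in the top N of every replicate. They had signals of 576.6, 431.8, 409.3, 389.5, 330.8 and 310.9, and 5 of them lay between 12673 and 29476 bp downstream of the nearest Antp start site, the other 3498 bp upstream of one. The strongest, at chr3R:6912526, ranked 1578, 2069 and 1403 in the replicates. A neighbour at chr3R:6912726 stood 200 bp from it.

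Between pb and Dfd, where bcd, zen, zen2 and Ama lie, there were 5 IDR summits. The one near Ama, which encodes a secreted immunoglobulin-domain protein, was the strongest at 506.8 (ranks 1622, 2695 and 1993). bcd, the maternal gene that patterns the anterior embryo, had a summit of 296.3 at 97 bp upstream of its start (ranks 5594, 2390 and 4777). Another pair stood 200 bp apart at 317.6 and 192.1, the stronger 1406 bp upstream of bcd. That one had no summit within 100 bp in replicate 3, but one at rank 3286 lay within 200 bp. The fifth was the Dfd summit described above.

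Single IDR summits lay in pb (165.6, 18140 bp downstream of its start, ranks 8695 and 6750 in replicates 1 and 3, none within 100 bp in replicate 2), in an intron of Scr (258.5, ranks 4203, 9889 and 3661), between Dfd and Scr (281.4, ranks 4392, 3906 and 4193) and between Scr and Antp in an intron of lncRNA:CR44931 (328.2, ranks 3612, 3626 and 3228). The pb summit was the weakest of the 33, and in replicate 2 a summit at rank 8031 lay within 200 bp of it. The last pair had similar ranks in every replicate.

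lab had no IDR summit in its body or within 20 kb of it, yet 11 pooled summits fell in its 17.16 kb, the highest pooled density of any segment at 64.1 per 100 kb. Their strongest reached 152.9, below the IDR minimum, and 0, 2 and 1 top-N summits fell there in replicates 1, 2 and 3. The body of Dfd held no pooled summit. A stretch of 43574 bp from just upstream of lab into the pb gene, which holds 8 protein-coding genes, 7 of the Ccp84A group and Edg84A, which encode cuticle proteins, had no pooled summit. Of 6792 gaps between neighbouring pooled summits on 3R, 51 were as long. The replicates listed 1, 5 and 0 peaks in it, none ranked better than 15054. An even longer gap of 76159 bp reached from outside the window to the 3′ end of lab, and 11 of the 6792 gaps were as long.

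**Figure D3:**
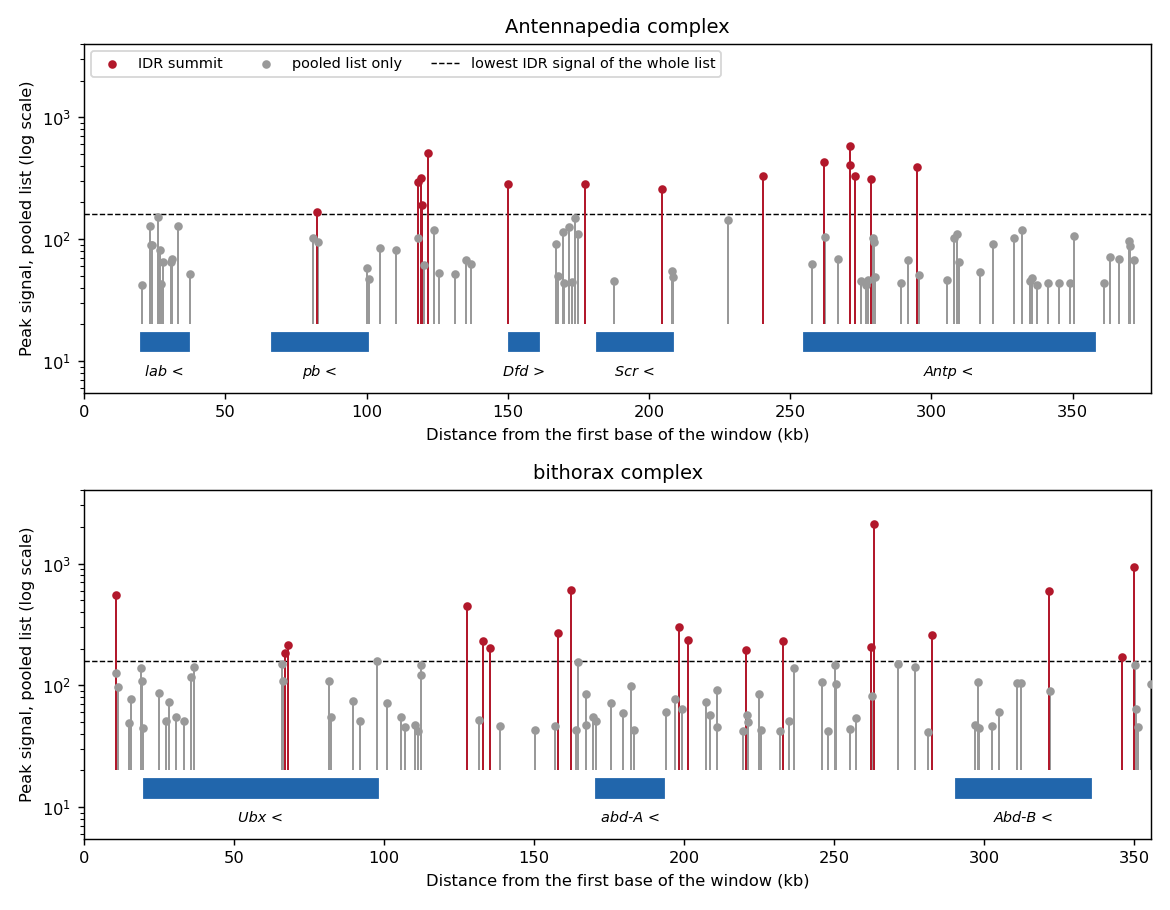
Summits of the pooled list along the Antennapedia (top) and bithorax (bottom) windows, by distance from the first base of each window in kb and by pooled signal on a log axis. Red marks IDR summits, grey the other pooled summits, blue bars the gene bodies with the direction of transcription, and the dashed line the lowest IDR signal, 159.9; the tallest line, 2130, stands between abd-A and Abd-B, and no IDR summit lies in lab, Dfd or abd-A.

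In the bithorax complex most IDR summits lay in the intervals between the Hox genes, which also hold other annotated genes. By annotation 12 of the 18 were in introns, 4 between genes and 2 in exons. The intervals had 6.87 (Ubx to abd-A) and 7.20 (abd-A to Abd-B) per 100 kb, against 5.06 over the window. The interval from Ubx to abd-A held 5, that from abd-A to Abd-B 7, Ubx itself 2, Abd-B 1 and abd-A 0, with 1 outside Ubx and 2 outside Abd-B. The lncRNA:iab8 summit at chr3R:16899962 had a signal of 2130 and pooled rank 172, against a whole-list maximum of 6471 and the next strongest Hox-window value of 929.7. It ranked 174, 108 and 235 in the replicates, ahead of every other summit of the windows in each. The summit lay 130 bp upstream of 1 annotated start of lncRNA:iab8, inside an exon of a longer transcript of that gene, and 34280 bp downstream of the nearest Abd-B start site.

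The other 6 summits between abd-A and Abd-B were weaker, between 196.1 and 301.0, and their ranks differed between replicates. Replicate 1 had 3 of the 7 in its top N, and replicates 2 and 3 had all 7. The 4 that replicate 1 placed outside its top N had ranks of 13061, 10040, 11316 and 9825 there, against 4177, 4918, 5438 and 3888 in replicate 2 and 6888, 5100, 4625 and 3703 in replicate 3. Of these 4, 3 held AGNNGGCGC. The start nearest to the summit at chr3R:16857187 was that of mir-iab-8, a microRNA gene of the complex, 845 bp away. The mir-iab-8 gene itself had only a pooled summit of 42.2 near its start.

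Between Ubx and abd-A, 3 summits stood in introns of lncRNA:bxd, with signals of 444.0, 232.0 and 204.3. The strongest, which carried AGAAGAAG, ranked 2933, 2185 and 2169. The remaining pair, at 608.2 and 267.9, lay between annotated genes, 29224 and 33667 bp downstream of the nearest abd-A start site. The first of this pair ranked 1877, 1130 and 1768 and was the third strongest in the complex. Inside Ubx both IDR summits, 184.8 and 215.2, lay in an intron 30801 and 30001 bp from its start and missed the top N in replicate 1 (ranks 9259 and 8461). A stretch of 29037 bp within Ubx had no pooled summit, and 134 of the 6792 gaps on 3R were as long.

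Abd-B had 1 IDR summit, of 598.7, in an intron 2004 bp downstream of 1 of its start sites, with ranks of 1550, 1823 and 1442. From that intron on, past its distal start sites, the pooled list had a gap of 23912 bp. That gap was not empty in the replicates: each listed peaks there, the best ranked 7828, 3839 and 3298 in replicates 1, 2 and 3. The absence is therefore of the pooled list only. Within 500 bp of the Abd-B start sites in the gap, the replicates listed only 1 summit, at rank 21488 in replicate 2. The better ranked peaks lay elsewhere in the gap, and how far they stood from the 598.7 summit is not given here.

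**Figure D4:**
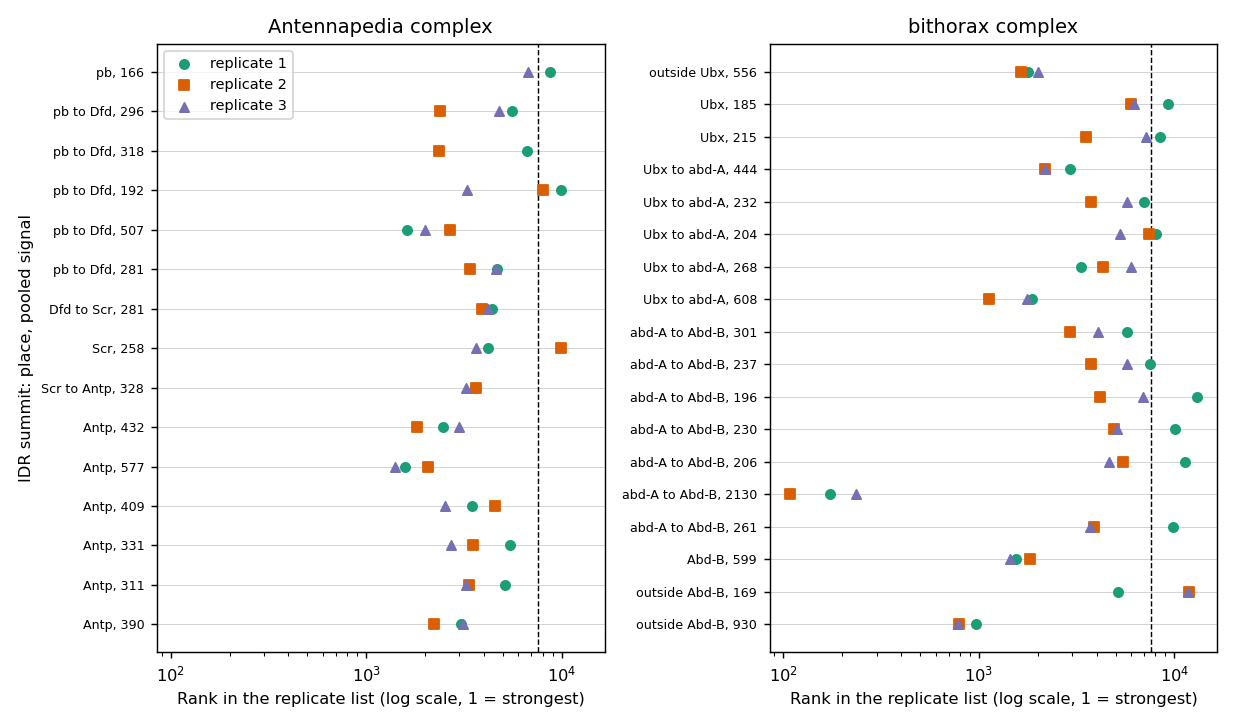
Rank of each of the 33 IDR summits of the Hox windows in replicates 1, 2 and 3 (horizontal log axis, strongest to the left), ordered by position and named by segment and pooled signal; a missing symbol means no summit within 100 bp. The dashed line is rank 7588; the 6 Antp summits lie left of it in every replicate, and replicate 1 places 7 of the 18 bithorax summits to its right.

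Over all 33 IDR summits, 21 (63.6%) were matched within 100 bp by a top-N summit of all 3 replicates, against 62.8% of all IDR peaks, and 31 (93.9%) had one at any rank, against 88.6%. Both shares are near those of the whole list. Within 200 bp all 33 had a summit at any rank in every replicate, against 95.7% of all IDR peaks. By replicate 24, 29 and 31 of the 33 were matched in the top N of replicates 1, 2 and 3 (72.7%, 87.9% and 93.9%), against 81.2%, 81.6% and 86.3% of all IDR peaks. The bithorax complex had the low value, with 11 of 18 matched in replicate 1 and 17 of 18 in each of the others. Its median rank was 6360.5, 3730.5 and 4862.5 in the replicates, while that of the Antennapedia summits was 4392, 3392.5 and 3239.5. The cause of the lower ranks in replicate 1 was not tested. Median signal was 317.6 for the Antennapedia, 248.9 for the bithorax and 294.0 for all IDR summits.

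The strongest pooled summits that missed the IDR list were close below it. After the Ubx start-site summit came 156.4 at the start of lncRNA:TS16 between Ubx and abd-A, 152.9 in an intron of lab, 151.1 between abd-A and Abd-B, 149.5 inside Ubx, 148.9 between Dfd and Scr, 148.1 between Ubx and abd-A, 147.8 at CG18622, 146.6 between abd-A and Abd-B and 144.6 between Scr and Antp. They spread over both complexes.

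Gene bodies of at least 20 kb were also compared by their number of top-N summits per 10 kb. Antp had 0.615 ± 0.0561, Abd-B 0.518 ± 0.128, Ubx 0.386 ± 0.129, Scr 0.248 ± 0.215, pb 0.0973 ± 0.169 and abd-A 0 in every replicate (SD, n = 3), against a median of 0.311 over 1013 genes. Neighbours in this order differed by less than 1 SD of one of the pair, except Abd-B and Ubx, whose difference was slightly larger than either SD. Over the 3 replicates the genes with values nearest to those of Antp among 1007 compared were MSAmiP (distance 0.0793), which lies in the bithorax complex, cpo (0.0856) and disco-r (0.0967). Nearest to Ubx were SKIP (0.0952), Tl (0.0960) and GEFmeso (0.0980). The distance is Euclidean, in summits per 10 kb, over 3 points that are replicates of 1 condition.

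Other motifs of Hox regulation were read in the same window, 100 bp to either side of the summit, on either strand. GAGAG, the core bound by GAGA factor, was present at 13 of 33 Hox IDR summits (39.4%), against 28.3% of all IDR summits and 30.3% of the windows beside the Hox summits. GCCAT, the core bound by the Polycomb recruiter Pho, was present at 11 (33.3%), against 25.7% of all IDR summits and 43.9% of the windows beside. TGATNNAT, a site form of Exd with a Hox protein, was present at 3 (9.09%), against 13.0% of all IDR summits and 19.7% of the windows beside. TATCGATA, bound by DREF, and GGTCACACT, bound by M1BP, both promoter factors, were present at 0 of 33, against 2.62% and 1.24%, and CAGGTAG, bound by Zelda, at 1 of 33, against 1.00%. With 33 summits these shares are a description only. Median GC content was 35.3% at Hox and 36.8% at all IDR summits.

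Genes that work with the Hox genes had IDR summits at their start sites in some cases. Among the other genes of the Antennapedia complex, 2 of 5 did, Ama and bcd, while zen, zen2 and ftz had no pooled summit there. Among Hox cofactors and co-regulators, 2 of 6 had one, tio (251.3) and disco-r (180.6), and the others, exd and hth, whose products bind DNA together with Hox proteins, and tsh and disco, had pooled summits only. Among known Hox targets 5 of 7 had one: dpp, a BMP-type ligand, at 1057 (ranks 589, 867 and 792), Dll, the limb gene repressed by Hox proteins in the abdomen, at 1055 (ranks 526, 1679 and 623), salm at 609.6, wg at 178.6 and rpr at 160.8, whereas vg and kn had no pooled summit. The weaker of these summits recurred less well. The wg summit ranked 7564, 9370 and 7380. The rpr summit, just above the lowest IDR signal of 159.9, ranked 10499 and 5060 in replicates 1 and 3. It had no match within 100 bp in replicate 2, and the tio summit had none in replicate 3. The counts of these lists stand beside the 26.9% of all protein-coding genes given above, and the lists were not tested.

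The remaining genes inside the windows were read in the same way. Of 38 protein-coding genes other than the Hox genes 6 (15.8%) had an IDR summit at a start site, against 26.9% of all protein-coding genes, and 11 had a pooled one, against 47.6%. The 6 were CG18622 (929.7), CG10324 and CCT3, which share 1 summit (555.7), Ama, bcd and AhcyL2 (169.4). The AhcyL2 summit ranked 5141 in replicate 1 and 11909 and 11731 in replicates 2 and 3. Of 38 noncoding genes 2 (5.26%) had an IDR summit at a start site, against 10.1% of all noncoding genes, and 13 had a pooled one, against 29.0%. The 2 were lncRNA:iab8 and lncRNA:CR45593, which shares its summit with Ama. In the compared clusters tin (917.2) and en (181.4) had an IDR summit there, and the Iroquois genes none of 3.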

How the data were processed

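The authors deposited, for 3 replicates, a list of peaks and background per replicate, a pooled list, and an IDR list made from them, on dm6, per the text deposited with the samples. The aligner, peak caller and IDR threshold were not given in the sources used here. Each peak carries a signal, the authors' own score on an unstated scale, and the −log10 of its q-value, as deposited. Read depth is unknown. The 8 Hox genes, gene lists, motifs and windows were chosen with earlier results of these data known. Named are the Hox genes, the IDR summits of the windows, the 10 strongest other pooled summits, list members with an IDR start-site summit, and the 3 genes nearest to Antp and to Ubx.

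Summits were taken as the start plus the deposited offset and are given 1-based. Summits of different lists matched within 100 bp. Start sites came from Ensembl release 115 and sequence from the RefSeq Release 6 genome. Replicates were compared by exact sign-flip permutation with Benjamini-Hochberg adjustment, using Python 3.11.15, numpy 2.4.6, pandas 2.3.3 and scipy 1.17.1. The density and matching steps were tested on simulated data. Other flanks, thresholds and distances, and leaving out each replicate, were tried as alternatives.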

Additional observations from a re-analysis of the deposited data

How the results depend on the processing

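The mean density difference of the Antennapedia complex stayed negative except with all listed peaks (0.412), an alternative chosen after seeing the data. With the stronger 50% of the top N it was -0.356 ± 0.679, within the spread between replicates (exact permutation p = 0.75). Leaving out a replicate gave -1.69 to -1.46 per 100 kb. The bithorax difference changed sign with the stronger 50% of the top N (-0.301) and with 3R counted from its first pooled summit (-0.405, chosen after seeing the data), and ran from 0.0301 to 0.767 without a replicate. Both windows together changed sign with 2 times N peaks (0.162) and with all listed peaks (2.48), and ran from -0.822 to -0.379 without a replicate. No setting could pass 0.05, and the cause of these changes was not tested. The 33 Hox summits became 17 among the stronger 50% of IDR peaks, and 22 to 28 kept a top-N match in both remaining replicates when 1 was left out. Those matched in every replicate numbered 21, against 13 within 50 bp and 11 in the stronger 50% of the top N, and 22 to 28 without a replicate. Hox genes with a start-site summit numbered 1, against 0 within 250 bp, 0 among the stronger 50% of IDR peaks, 8 in the whole pooled list, and 1 without any single replicate. Shares of all genes within 250 bp, of all peaks matched within 50 bp, and of either at the stronger 50% are not given here. The drops at these settings are therefore not a result about the Hox genes. Unknown depth limits any statement on weak peaks. All differences were taken within replicate.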
